A study of Homo sapiens with 12 samples.

Results

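The zinc-finger clusters at chromosome bands 19q13.1 and 19q13.31 are described here through 50 listed ZNF genes, 30 of 19q13.1 and 20 of 19q13.31. Members are taken by name and band. Of the 50, 49 were found by name in the deposited tables of 18969 genes. ZNF112 was not found by that symbol. The tables list ZFP112, whose RefSeq symbol is ZNF112, and it is given below with the genes between the members, outside the counts of members described. A gene was described where its counts reached 1 CPM (a gene's counts scaled to the library's total) in at least 4 of 12 libraries. This left 28 genes, 15 of 30 in 19q13.1 and 13 of 20 in 19q13.31. These 28 are called the members described, and 25 of them reached 1 CPM in all 12 libraries.

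The cells were HCT116, a human cell line from a colorectal carcinoma, with 3 groups of 4 libraries. UNC0642 recovery stands for cells kept for 24 h without methionine in the presence of UNC0642, then for 24 h with methionine and without inhibitor. UNC0642 is an inhibitor of EHMT1 and EHMT2 (GLP and G9a), which mono- and dimethylate lysine 9 of histone H3. DMSO recovery stands for the same restriction and recovery with the vehicle DMSO in place of the inhibitor. The group at 0 h carries only that time as its treatment label, and no label says if these cells had been through the restriction. All groups were grown in RPMI-1640 with 10% FBS. Nothing states that the replicates came from separate cultures, so a p-value here reflects only the spread among these samples, possibly a technical one.

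Libraries held 14658082 to 20179847 expected counts. The deposited tables give each gene a length and an effective length, and their difference split the libraries. This length gap was short in UNC0642 replicates 1 and 4, DMSO replicate 1 and 0 h replicates 3 and 4, and long in the other 7 libraries. The epithelial markers EPCAM, KRT8, KRT18, CDH1, CDX2, CLDN3 and CLDN4 were present in every library, while CDX1 was at 0 and VIL1 and LGALS4 stayed under 0.4 CPM. The 10 markers of other cell types summed to 28.2 to 36.9 CPM in UNC0642 libraries, 27.5 to 36.2 CPM in DMSO libraries and 21.3 to 44.4 CPM at 0 h. Most of this was COL1A1, and PTPRC stayed at or under 0.122 CPM. COL1A2, a fibroblast collagen gene, was above 1 CPM in UNC0642 replicates 3 and 4, DMSO replicate 1 and 0 h replicates 1, 2 and 3. Between UNC0642 and DMSO recovery 0 of 8 tested markers of other cell types were called by edgeR, DESeq2 or limma-voom, and 1 was higher at an unadjusted p under 0.05 in edgeR. Against 0 h, edgeR called 2 lower and 1 higher after UNC0642 recovery, DESeq2 2 and 0, and limma-voom 2 and 1. After DMSO recovery edgeR called 6 lower and 2 higher, DESeq2 2 and 1, and limma-voom 3 and 2.

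Most genes of these clusters encode KRAB zinc-finger proteins. Tandem C2H2 fingers bind DNA, and the KRAB domain recruits the corepressor TRIM28 (KAP1), which brings in the H3K9 methyltransferase SETDB1. Many such proteins silence transposable elements. The clusters grew by repeated tandem duplication, so neighbouring members often resemble each other, and the 3′ exons that encode the fingers are themselves known to carry trimethylated H3K9 in human cells. EHMT1 and EHMT2 place the lower methylation states of the same residue.

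Promoter sequences are shown first because the members share letters there beyond their fingers. RefSeq promoters on GRCh38.p14, 250 bases before to 50 bases after a start, were found for 43 of the 50 genes, 62 promoters in all, with ZNF112 counted here by its RefSeq symbol. The missing genes were ZNF30, ZNF571, ZNF781, ZNF221, ZNF155, ZNF223 and ZNF233. The word TCTGGGAA, on either strand, was present in 32 of 62 promoters (51.6%). It was present in 8.43% of promoters of other ZNF or ZFP genes of chromosome 19, 6.96% of those on other chromosomes and 2.75% of all 35116 promoters. The word GTAGTCCA, also on either strand, was present in 30.6% of the members' promoters, against 0.598% of all promoters. Both words were present in 22.6%, against 0.0911%. The words do not overlap, and they were picked after counting short words in these same promoters, so the shares are a description. Some promoters overlap, so the same copy of TCTGGGAA can be counted more than once. This held for ZNF567 with ZNF461, ZNF345 with ZNF790, ZNF829 with ZNF568, and overlapping promoters of ZNF566 and of ZNF112. Windows around the words are given here for 8 members, 5′ to 3′ on the strand that carries TCTGGGAA, with the words in capitals. The strand named is that of the window.
ZNF302 (chr19:34677638-34677665, plus strand): ggatTCTGGGAAatgtggttcgccgtgg
ZNF566 (chr19:36489607-36489634, plus strand): gaccTCTGGGAAgcgtagtcagagacgt
ZNF567 (chr19:36666854-36666881, plus strand): gtccTCTGGGAAatgcagtccgagggga
ZNF283 (chr19:43827250-43827277, minus strand): gactTCTGGGAAatGTAGTCCAcagcgg
ZNF224 (chr19:44094257-44094284, plus strand): gaatTCTGGGAAgtGTAGTCCAgacgct
ZNF226 (chr19:44165042-44165069, plus strand): gaatTCTGGGAAgcGTAGTCCAggtcct
ZNF235 (chr19:44305091-44305118, minus strand): gcatTCTGGGAActGTAGTCCAggagtg
ZNF180 (chr19:44500553-44500580, minus strand): ggctTCTGGGAAttgtagttctggctct

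The promoter of ZNF225 held 4 copies of TCTGGGAA, at 224, 153, 81 and 25 bases before the start, and it is printed whole (chr19:44113149-44113448, plus strand) because of this repetition.
ZNF225: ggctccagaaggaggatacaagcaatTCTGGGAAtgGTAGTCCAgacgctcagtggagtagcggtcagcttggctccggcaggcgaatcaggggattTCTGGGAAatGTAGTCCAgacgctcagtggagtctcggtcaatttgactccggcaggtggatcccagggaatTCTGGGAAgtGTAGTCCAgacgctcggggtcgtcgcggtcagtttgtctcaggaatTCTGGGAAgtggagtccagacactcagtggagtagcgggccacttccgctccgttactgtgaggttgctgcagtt

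ZNF567 shares its start region with ZNF461, which runs the other way from a start 97 bases off. A promoter of ZNF567 (chr19:36666684-36666983, plus strand) holds a copy of the word that lies in the promoters of both genes.
ZNF567: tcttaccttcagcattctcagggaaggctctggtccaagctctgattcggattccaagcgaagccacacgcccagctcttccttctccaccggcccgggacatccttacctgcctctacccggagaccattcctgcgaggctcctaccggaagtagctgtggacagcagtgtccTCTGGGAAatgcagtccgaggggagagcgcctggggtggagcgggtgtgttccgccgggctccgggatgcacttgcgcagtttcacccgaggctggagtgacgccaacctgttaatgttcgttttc

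The members described were expressed at low levels, apart from ZNF146. On the FPKM scale, which divides by gene length, the mean over 12 libraries ran from 0.352 to 3.94 in 19q13.1 without ZNF146 and from 0.366 to 5.38 in 19q13.31, and the median over all 12741 genes tested was 10.1. ZNF146 (OZF), a protein made almost only of zinc fingers and without a KRAB domain, had a mean of 51.1 FPKM. The next level in 19q13.1 was that of ZNF302, at 3.94 FPKM. In 19q13.31 the highest levels were those of ZNF226 (5.38 FPKM) and ZNF227 (4.93 FPKM). The lowest were ZNF585A (0.352 FPKM) and ZNF155 (0.366 FPKM), which reached 1 CPM in 10 and 5 of the 12 libraries. ZNF221 did so in 9.

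**Figure D1:**
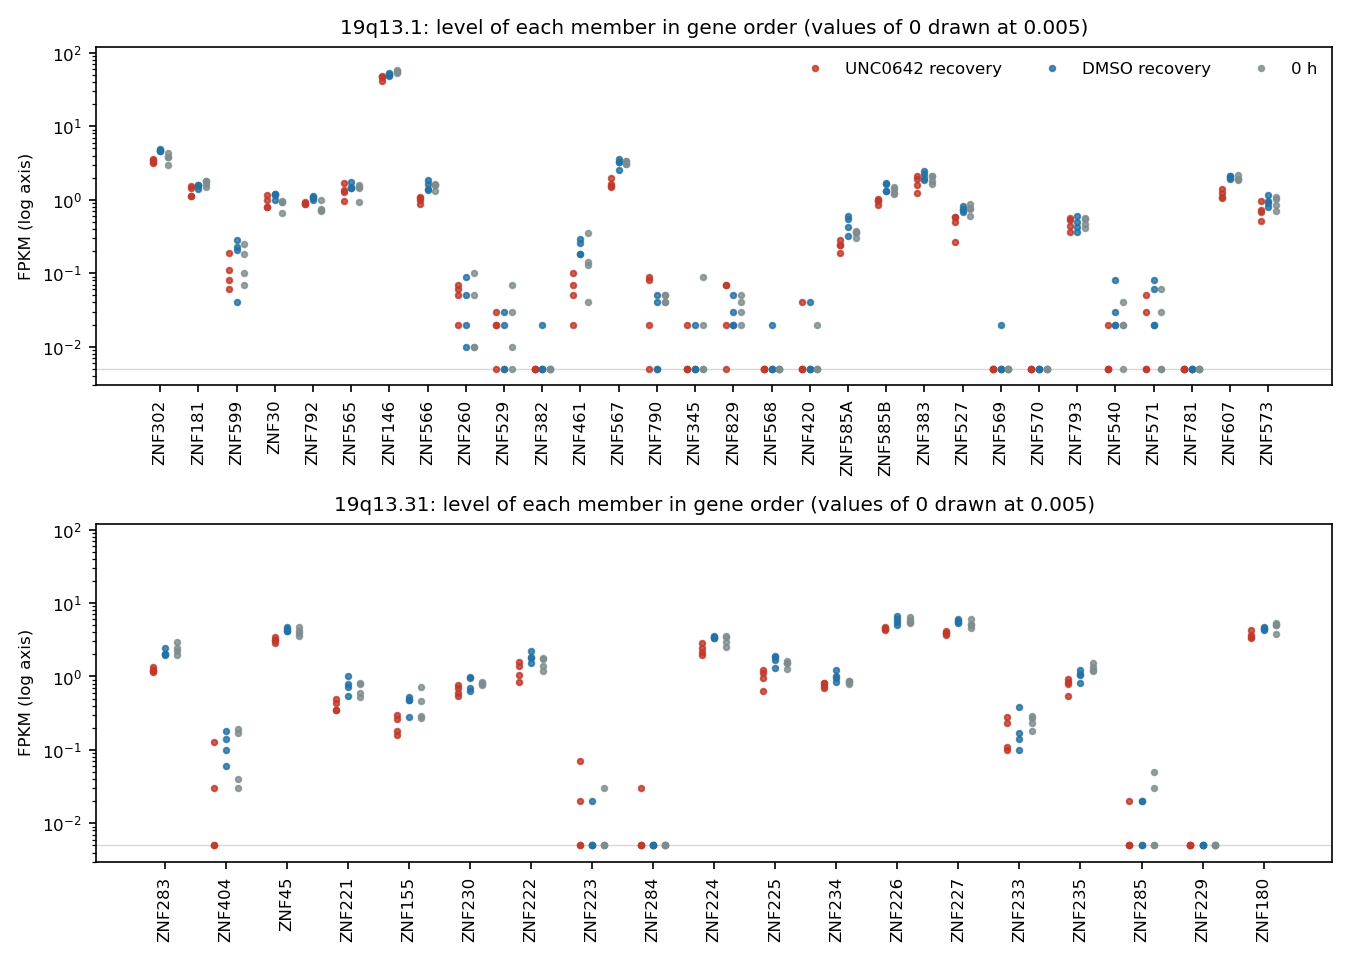
FPKM (log axis) of the 49 genes found by name, in gene order, with 1 point per library, in UNC0642 recovery, DMSO recovery and 0 h from left to right; values of 0 are drawn at 0.005. ZNF146 stands above all others at a mean of 51.1 FPKM, and genes near 0 lie beside expressed ones.

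The 21 genes found but not described had at most 116 counts summed over the 12 libraries, while every gene described had at least 193. In 19q13.1 they were ZNF599, ZNF260, ZNF529, ZNF382, ZNF461, ZNF790, ZNF345, ZNF829, ZNF568, ZNF420, ZNF569, ZNF570, ZNF540, ZNF571 and ZNF781. In 19q13.31 they were ZNF404, ZNF223, ZNF284, ZNF233, ZNF285 and ZNF229. ZNF382 is known as a gene silenced in several tumours, ZNF420 (APAK) as a regulator of p53, and mouse Zfp568 as a repressor of a placental Igf2 transcript. ZNF570, ZNF781 and ZNF229 had no count in any library, which allows up to 0.147 to 0.210 CPM per library (3 counts, counting error only). Among the listed genes alone, in gene order, ZNF260, ZNF529, ZNF382 and ZNF461 followed each other, as did ZNF790, ZNF345, ZNF829, ZNF568 and ZNF420. The listed gene between these runs was ZNF567, at 2.69 FPKM. TCTGGGAA was present in a promoter of 10 of 17 genes not described, and of 18 of 25 that were.

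RSEM divides reads that fit several genes among them, so single values of members that share sequence are uncertain. In windows of 50 bases of the longest coding transcript, 26.2% of ZNF585B was found in other genes, 19.6% in its paralog ZNF585A. Of ZNF585A 18.0% was shared, and of ZNF302 13.7%, most of it with ZNF181. The share was 12.5% in ZNF222, 11.7% in ZNF181 and 9.15% in ZNF607, and at most 4.71% (ZNF221) in the other members described. ZNF223 and ZNF284 shared 61.9% and 43.9% of their windows. ZNF146, ZNF45, ZNF227, ZNF235, ZNF180, ZNF792, ZNF30, ZNF565 and ZNF573 shared none.

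The comparison of UNC0642 recovery with DMSO recovery asks how the inhibitor given during the restriction altered transcripts after 24 h of recovery. Of the 28 members described, 14 were lower after UNC0642 recovery and none was higher. Of the 25 that reached 1 CPM in all 12 libraries, 12 were lower and 0 higher. Their median (log2) was -0.48, with 25 of 25 below 0. The other 3, ZNF585A, ZNF221 and ZNF155, met the limit mainly through DMSO and 0 h libraries, where they were higher. Their falls thus support nothing in either comparison with UNC0642. Counts and medians over the 28 members, here and below, include these 3 genes. The call is an adjusted p under 0.05 in edgeR's quasi-likelihood test, with Benjamini-Hochberg adjustment over all 12741 genes tested. Of all genes tested, 2.53% were called lower and 2.06% higher. The log2 fold change was below 0 for 28 of 28 members, with a median of -0.48, where the median over all genes was -0.00. At an unadjusted p under 0.05, 21 members were lower and 0 higher. DESeq2 called 14 lower and 0 higher, and limma-voom 15 lower and 0 higher. In 17 members every UNC0642 library lay below every DMSO library, which held for 5.41% of all genes tested. This set includes ZNF585A and ZNF221. In bulk RNA, fewer cells expressing a gene and less RNA per cell cannot be told apart.

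By band, 7 of 15 members of 19q13.1 were lower, with a median log2 fold change of -0.46. In 19q13.31 7 of 13 were lower, with a median of -0.53. These calls include ZNF585A in 19q13.1 and ZNF221 in 19q13.31. The count was larger among the better covered members. Of members with a mean of at least 5 CPM 10 of 11 were called, and below it 4 of 17, ZNF585A and ZNF221 included. The medians of the 11 and the 17 members were -0.53 and -0.44. Of genes tested with a mean of at least 5 CPM 2.78% were called lower, and of those below it 1.33%.

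In each library, the median deviation of the members from their 0 h mean was -0.55 to -0.38 (log2) in UNC0642 libraries, -0.04 to 0.08 in DMSO libraries and -0.02 to 0.05 at 0 h. The CPM of the members without ZNF146 summed to 110.7 to 119.7 in UNC0642 libraries, 154.6 to 168.4 in DMSO libraries and 156.3 to 168.4 at 0 h. All 4 UNC0642 libraries thus lay below the other 8 on both measures.

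**Figure D2:**
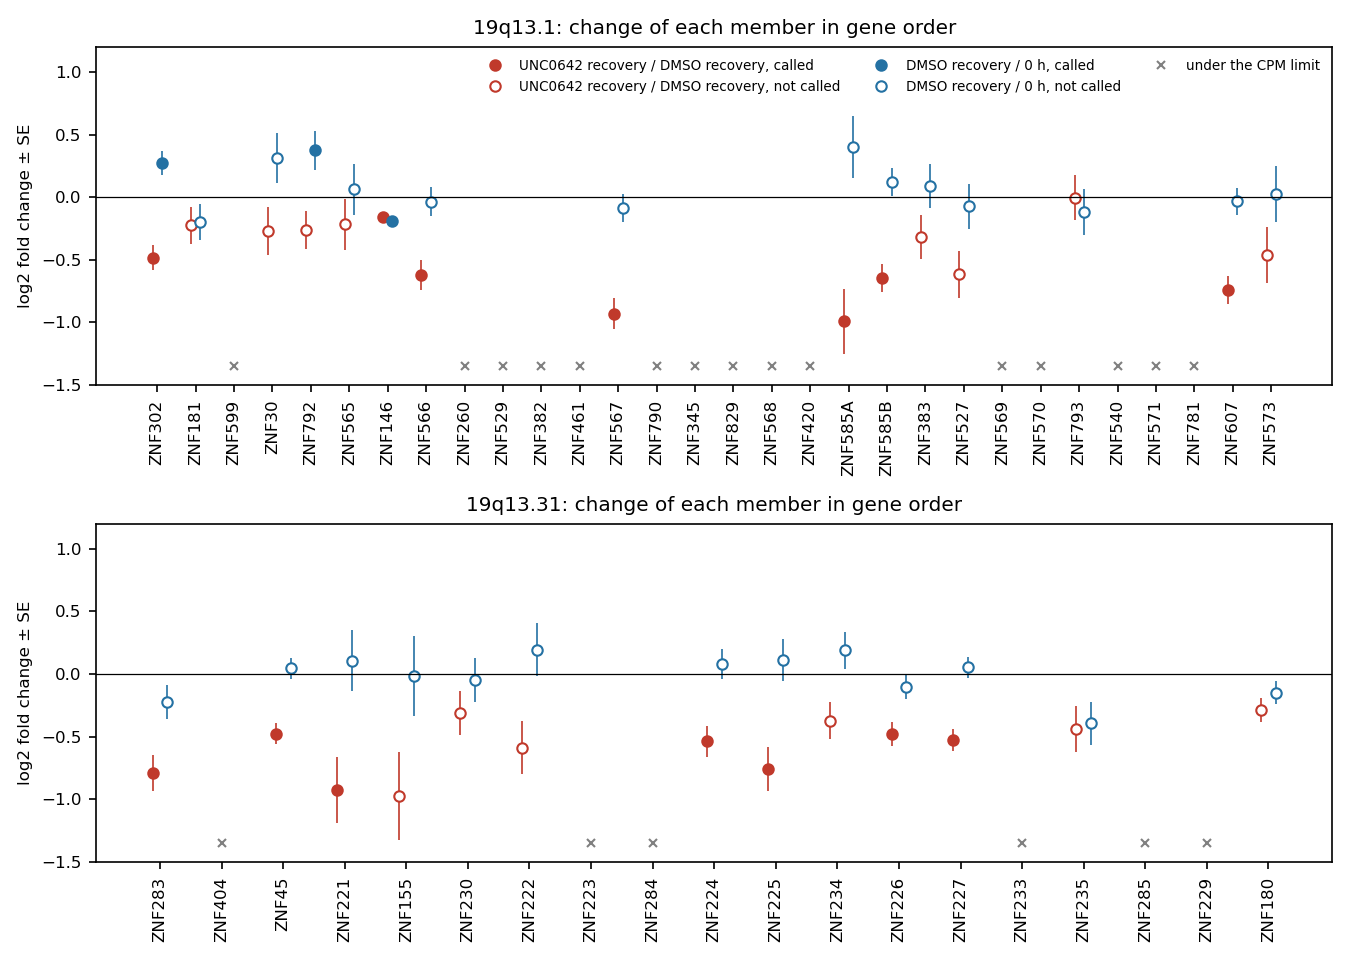
Log2 fold change ± SE (edgeR, 4 libraries per group) of each member in gene order for UNC0642 over DMSO recovery (red) and DMSO recovery over 0 h (blue), filled where called at an adjusted p under 0.05; crosses mark genes under the CPM limit. The red points lie at or below 0 in both bands, with a median of -0.48, and the blue points lie around 0, with a median of 0.03.

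Among members of 19q13.1, ZNF567 had the smallest p of this comparison. It had 3.76, 4.17, 5.02 and 3.96 CPM in UNC0642 libraries, 6.56, 9.14, 8.21 and 8.38 CPM in DMSO libraries, and 9.01, 8.10, 8.21 and 8.90 CPM at 0 h. Every UNC0642 library lay below all others, and DMSO and 0 h overlapped. The gene was 1.90-fold lower after UNC0642 than after DMSO recovery (-0.93 ± 0.12 as log2 fold change with its SE, 4 libraries per group, edgeR adjusted p = 2.48e-06). Its neighbour ZNF461, under the CPM limit with 99 counts in all, had 0.297, 0.165, 0.0529 and 0.220 CPM in UNC0642 libraries, against 0.900, 0.548, 0.562 and 0.784 CPM in DMSO libraries. These groups did not overlap either, but ZNF461 entered the test through DMSO and 0 h libraries, where it was higher. Its fall thus supports nothing in either comparison with UNC0642. The gene was 3.70-fold lower (-1.89 ± 0.52, edgeR adjusted p = 0.0263), and against 0 h it was at -1.47 ± 0.56 (adjusted p = 0.0308). A library's value rests on few counts, and ZNF461 is not counted among the 28.

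ZNF607 had 5.05, 5.76, 4.49 and 4.35 CPM in UNC0642 libraries and 7.73, 8.53, 8.09 and 8.48 CPM in DMSO libraries, with 7.98, 9.11, 8.27 and 8.13 CPM at 0 h. It was 1.67-fold lower (-0.74 ± 0.11, edgeR adjusted p = 2.58e-05), without overlap. ZNF566 averaged 5.09 ± 0.525 CPM in UNC0642 and 7.88 ± 1.11 CPM in DMSO libraries (SD, n = 4 each), a log2 fold change of -0.62 ± 0.12 (edgeR adjusted p = 0.000804). Its UNC0642 libraries, at 4.39 to 5.54 CPM, lay below its lowest DMSO library, at 6.88 CPM.

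The paralogs ZNF585A and ZNF585B were both called lower, but ZNF585A met the CPM limit mainly through DMSO and 0 h libraries. Its fall thus supports nothing. ZNF585A had 0.990, 1.10, 0.740 and 0.935 CPM in UNC0642 libraries, against 2.17, 2.44, 1.69 and 1.27 CPM in DMSO libraries, and was the lowest of the called members by fold (1.99-fold, -0.99 ± 0.26, edgeR adjusted p = 0.0175). Its call was lost without DMSO replicate 1 (adjusted p = 0.0631), DMSO replicate 2 (0.0907) or UNC0642 replicate 3 (0.0696). ZNF585B, with more counts, averaged 5.72 ± 0.448 CPM in UNC0642 and 8.97 ± 1.26 CPM in DMSO libraries (SD, n = 4 each; -0.64 ± 0.11, edgeR adjusted p = 0.000295). Since RSEM splits the reads these paralogs share, the values of the pair are uncertain as single genes.

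ZNF302 and ZNF146, the members of 19q13.1 with the highest FPKM, had smaller fold changes. ZNF302 had 7.97, 7.84, 8.83 and 8.58 CPM in UNC0642 libraries and 12.2, 11.1, 11.7 and 11.3 CPM in DMSO libraries (-0.48 ± 0.10, edgeR adjusted p = 0.00146). ZNF146 had 175, 169, 171 and 151 CPM in UNC0642 libraries and 190, 182, 177 and 194 CPM in DMSO libraries. It was 1.12-fold lower (-0.16 ± 0.04, edgeR adjusted p = 0.00909), with its highest UNC0642 library just under its lowest DMSO library. That call was lost without DMSO replicate 4 (adjusted p = 0.0516) or UNC0642 replicate 4 (0.0595). ZNF565, which starts 22 bases away on the other strand and was chosen for that, was at -0.22 ± 0.20 (adjusted p = 0.635) and not called.

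In 19q13.31, the ZNF45-related genes ZNF224, ZNF225, ZNF226 and ZNF227 were lower, as were ZNF45 and ZNF283. The related ZNF221 was also called lower, but it met the CPM limit mainly through DMSO and 0 h libraries, so its fall supports nothing. ZNF283, at the proximal end, had 3.02, 3.18, 2.75 and 2.86 CPM in UNC0642 libraries, against 4.82, 5.85, 4.89 and 4.95 CPM in DMSO libraries. It was 1.73-fold lower (-0.79 ± 0.15, edgeR adjusted p = 0.000566), without overlap. ZNF225, whose promoter is printed above, had 3.17, 2.85, 1.64 and 2.48 CPM in UNC0642 and 4.39, 4.69, 4.89 and 3.33 CPM in DMSO libraries (-0.76 ± 0.18, edgeR adjusted p = 0.00720). Its groups lay close, with 3.17 CPM the highest after UNC0642 and 3.33 CPM the lowest after DMSO.

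ZNF227 had 12.1, 10.5, 11.3 and 11.3 CPM in UNC0642 libraries and 17.8, 16.6, 15.2 and 15.7 CPM in DMSO libraries, with 13.7, 15.2, 15.7 and 18.6 CPM at 0 h. The UNC0642 libraries lay below all others (-0.53 ± 0.09 against DMSO recovery, edgeR adjusted p = 7.61e-05). ZNF224, known as a repressor of the aldolase A gene, averaged 5.50 ± 0.876 CPM in UNC0642 and 8.01 ± 0.207 CPM in DMSO libraries (SD, n = 4 each; -0.54 ± 0.12, edgeR adjusted p = 0.00521). ZNF226 averaged 7.29 ± 0.394 CPM in UNC0642 and 10.2 ± 0.715 CPM in DMSO libraries (-0.48 ± 0.10, edgeR adjusted p = 0.00115).

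ZNF221 had 0.792, 1.10, 0.793 and 0.990 CPM in UNC0642 libraries, against 1.27, 2.31, 1.63 and 1.81 CPM in DMSO libraries (-0.93 ± 0.26, edgeR adjusted p = 0.0328). Its call was lost without any one of DMSO replicates 2, 3 and 4 or UNC0642 replicates 1, 3 and 4, at adjusted p of 0.0560 to 0.138. ZNF45, chosen after its values were seen, was at 11.8 ± 0.822 CPM in UNC0642 and 16.4 ± 0.929 CPM in DMSO libraries (SD, n = 4 each; -0.48 ± 0.08, edgeR adjusted p = 0.000214).

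The remaining 14 members did not pass the test, with log2 fold changes from -0.97 to -0.00. ZNF155 had the lowest of these, at -0.97 ± 0.35 (edgeR adjusted p = 0.113), with 0.643, 0.439, 0.740 and 0.385 CPM in UNC0642 libraries and 1.32, 0.670, 1.18 and 1.18 CPM in DMSO libraries, and its groups overlapped. ZNF527 (-0.61 ± 0.19, adjusted p = 0.0534) and ZNF180 (-0.29 ± 0.09, adjusted p = 0.0743), also chosen after their values were seen, did not pass. ZNF527 passed without UNC0642 replicate 1 (adjusted p = 0.0392) or 2 (0.0361), and ZNF180 without UNC0642 replicate 2 (0.0275) or 0 h replicate 3 (0.0424). ZNF793, chosen in the same way for its value near 0, had 3.02, 2.47, 3.65 and 3.96 CPM in UNC0642 libraries and 4.18, 3.47, 2.47 and 2.99 CPM in DMSO libraries (-0.00 ± 0.18).

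**Figure D3:**
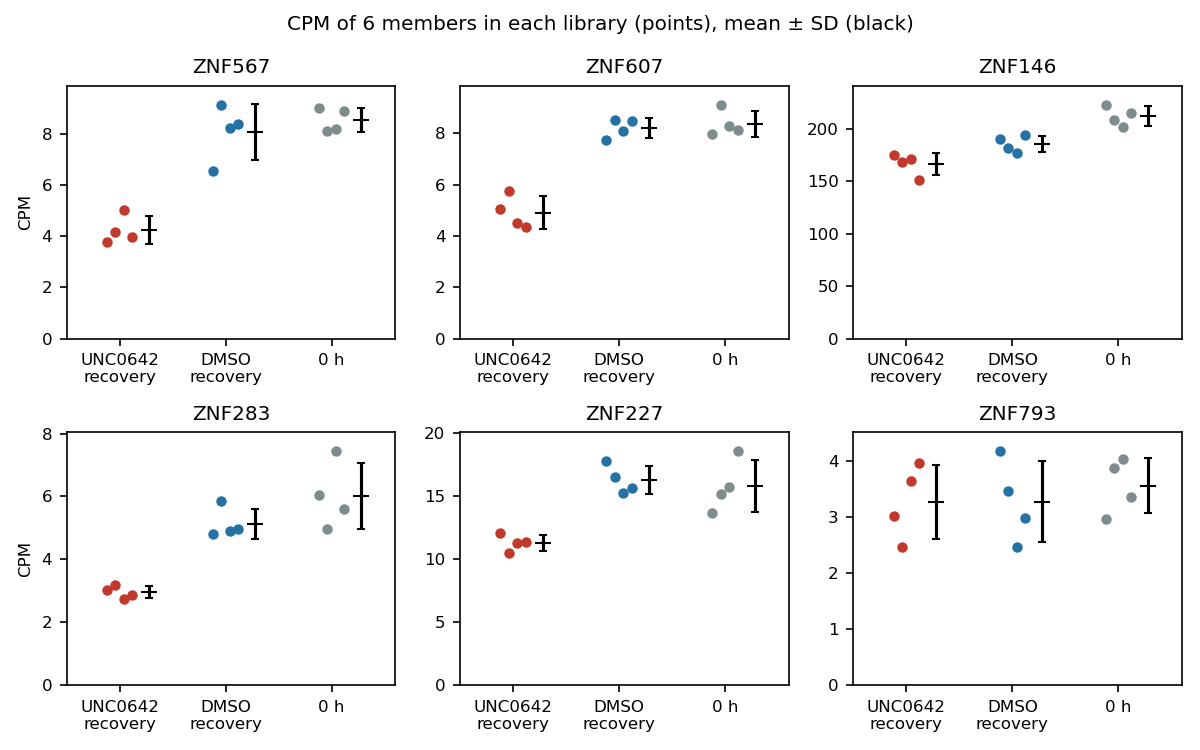
CPM of 6 members in each library (points) with mean ± SD (black, n = 4) in UNC0642 recovery, DMSO recovery and 0 h; axes start at 0. ZNF567, ZNF607, ZNF283 and ZNF227 have all UNC0642 libraries below the rest, ZNF146 is lower again in UNC0642 than in DMSO libraries, and the groups of ZNF793 overlap.

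Fewer members were called in subsets of the libraries. Here and below, the long-gap and short-gap comparisons used the means of those libraries alone. Their filter, scaling and spread came from a fit of all 12 libraries. In the long-gap libraries alone 9 of 28 members were called lower, with a median of -0.45 and 27 of 28 below 0, where 1.15% of all genes were called lower. In the short-gap libraries alone, with a single DMSO library that was assumed to vary like the others, 2 were called lower, with a median of -0.52 and 28 of 28 below 0, against 0.534% of all genes. Without the 6 libraries that had COL1A2 above 1 CPM, 9 were called lower, with a median of -0.44, against 1.18% of all genes. Leaving out single libraries gave 12 to 16 members called lower, and 11 of the 14 kept their call whichever library was left out.

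UNC0642 recovery was also set against 0 h, a comparison that shares the UNC0642 libraries with the one above. Of the 28 members described, 17 were lower and none was higher by edgeR, with a median log2 fold change of -0.45 and 26 of 28 below 0. Of the 25 members at 1 CPM in all 12 libraries, 15 were lower and 0 higher, with a median of -0.44. In 23 of these 25 the log2 fold change was below 0. Of all genes tested, 23.6% were lower and 23.4% higher, with a median of 0.01. At an unadjusted p under 0.05, 19 members were lower and 0 higher, and DESeq2 and limma-voom each called 17 lower and 0 higher. In 17 members every UNC0642 library lay below every 0 h library, against 20.1% of all genes. This set includes ZNF585A and ZNF221. In 19q13.1, 7 of 15 were lower, and in 19q13.31 10 of 13, ZNF221 and ZNF155 included. All but ZNF181 and ZNF155 of the 17 kept their call whichever single library was left out; ZNF181 lost its own without 0 h replicate 1 (adjusted p = 0.0509) or UNC0642 replicate 1 or 3 (0.0630 each). Long-gap libraries alone called 12 members lower (median -0.44, 17.8% of all genes lower) and short-gap libraries alone 13 (median -0.52, 16.2% of all genes lower). Without the libraries that had COL1A2 above 1 CPM, which leaves a single 0 h library assumed to vary like the others, 10 were called (median -0.49, 11.6% of all genes lower).

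Among members of 19q13.1 the largest falls against 0 h were those of ZNF567 (2.02-fold, -1.02 ± 0.12, edgeR adjusted p = 3.67e-08) and ZNF607 (1.71-fold, -0.77 ± 0.11, adjusted p = 1.13e-06). In 19q13.31 ZNF283 and ZNF155 were lowest by fold, and ZNF155 reached 1 CPM in 0 UNC0642, 3 DMSO and 2 0 h libraries. ZNF283 was at 6.04, 4.95, 7.44 and 5.61 CPM at 0 h, all above the 2.75 to 3.18 CPM of its UNC0642 libraries (2.02-fold, -1.02 ± 0.15, edgeR adjusted p = 8.25e-07). ZNF155 was called at -0.99 ± 0.36 (adjusted p = 0.0231), with 1.81, 0.731, 1.18 and 0.701 CPM at 0 h, and its groups overlapped in part, since 0.740 CPM was its highest UNC0642 value. Without 0 h replicate 1 its log2 fold change was -0.63 (adjusted p = 0.191), and the call was also lost without UNC0642 replicate 2 (0.0606) or 4 (0.0664). ZNF146, at 223, 208, 201 and 215 CPM at 0 h, was 1.27-fold lower after UNC0642 recovery (-0.35 ± 0.04, edgeR adjusted p = 3.56e-09), without overlap. ZNF302 was not called (-0.21 ± 0.10, adjusted p = 0.0903), but passed without 0 h replicate 3 (adjusted p = 0.0168).

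DMSO recovery against 0 h asks how cells recovered with vehicle alone differed from 0 h, and it shares the DMSO libraries with the comparison against UNC0642 and the 0 h libraries with the other. Here the median log2 fold change was 0.03, and 1 of 28 was lower and 2 were higher by edgeR. Of all genes tested, 21.7% were lower and 22.4% higher. Of genes with a mean under 5 CPM, as in 17 of the 28 members, only 3.51% were lower and 19.2% higher. Of those 17 members 0 were lower and 1 higher. In 13 of 28 the log2 fold change was below 0. The called members were ZNF146, ZNF302 and ZNF792.

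ZNF146 was 1.14-fold lower (-0.19 ± 0.04, edgeR adjusted p = 0.000107), with all DMSO libraries below all 0 h libraries. ZNF302, at 9.79, 9.85, 7.72 and 11.01 CPM at 0 h, was 1.21-fold higher after DMSO recovery (0.27 ± 0.10, edgeR adjusted p = 0.0227), again without overlap. This call was lost without 0 h replicate 3 (adjusted p = 0.124) or DMSO replicate 1 (0.0594). ZNF792 had 4.13, 3.90, 3.71 and 4.12 CPM in DMSO libraries and 2.84, 2.76, 3.82 and 2.87 CPM at 0 h (0.38 ± 0.16, edgeR adjusted p = 0.0494), with 0 h replicate 3 inside the range of the DMSO libraries. Its call was lost without any one of 11 of the 12 libraries and held only without 0 h replicate 3 (adjusted p = 0.0167). ZNF235, chosen after its values were seen, missed the threshold at -0.39 ± 0.17 (adjusted p = 0.0617) and passed it without DMSO replicate 3 (0.0385) or UNC0642 replicate 4 (0.0496). ZNF180 passed without 0 h replicate 3 (0.0272). In the long-gap libraries alone 1 member was lower and 0 higher, where 18.3% of all genes were lower and 17.6% higher. At an unadjusted p under 0.05 this edgeR fit gave 1 lower and 1 higher. Their median was 0.01 in the short-gap libraries, which hold a single DMSO library. It was -0.05 without the libraries that had COL1A2 above 1 CPM, which leaves a single 0 h library.

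The genes that lie between the first and last member of each band were compared with the members. Among zinc-finger genes of these stretches not found under a listed name, 4 of 4 tested were lower after UNC0642 than after DMSO recovery. ZNF850 was at -0.79 ± 0.15 (edgeR adjusted p = 0.000650) and ZFP30 at -0.72 ± 0.14 (adjusted p = 0.00127). ZFP112, which is the listed ZNF112 by its RefSeq symbol, was at -0.57 ± 0.17 (adjusted p = 0.0447) and ZFP14 at -0.54 ± 0.13 (adjusted p = 0.0126). ZFP82 had too few counts to be tested.

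Of 36 other genes tested between members of 19q13.1, 2 were lower and none was higher by edgeR, with a median of 0.01. In gene order all of these but HKR1 came before ZFP14, so they were not spread evenly through the band. HKR1 lay between ZNF850 and ZFP30. At an unadjusted p under 0.05 2 were lower and 3 higher. DESeq2 called 1 lower and 0 higher, and limma-voom 2 lower and 0 higher. The lowest was HKR1, itself a KRAB zinc-finger gene whose symbol does not show it, at 6.92 ± 1.06 CPM in UNC0642 and 11.01 ± 1.30 CPM in DMSO libraries (SD, n = 4 each; -0.66 ± 0.11, edgeR adjusted p = 0.000108). The other was GRAMD1A, a cholesterol transfer protein, at -0.15 ± 0.04 (adjusted p = 0.0442), which DESeq2 did not call. The highest, CD22 (0.54 ± 0.25) and KIRREL2 (0.45 ± 0.34), were not called. Between the members of 19q13.31 the tables held no gene other than zinc-finger genes.

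The other zinc-finger genes of the genome were set beside the members. Of 132 other ZNF or ZFP genes tested on chromosome 19, 58 were lower and 1 higher in UNC0642 against DMSO recovery, with a median of -0.38. Of 242 on other chromosomes 23 were lower and 2 higher, with a median of -0.03. Called lower were 14 of 28 members and 43.9% of the other zinc-finger genes of the chromosome, and these shares were not tested against each other. The promoter word TCTGGGAA was present in 9 of 13 members called lower and in 9 of 12 not called, and GTAGTCCA in 6 of 13 and 3 of 12. These shares were not tested.

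**Figure D4:**
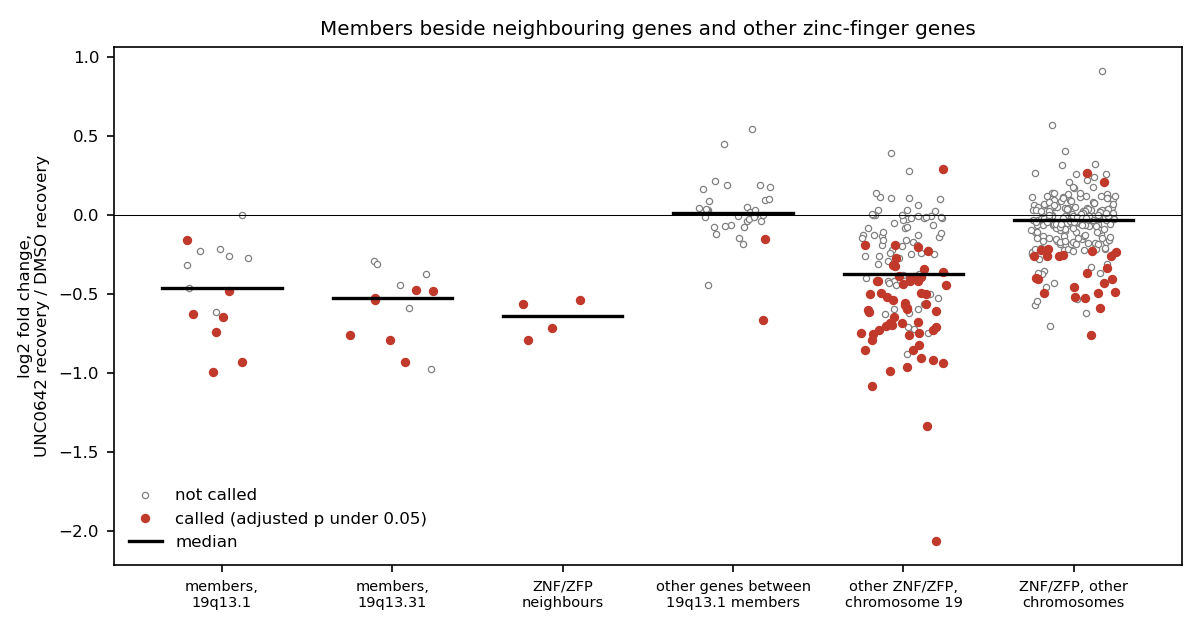
Log2 fold change of UNC0642 over DMSO recovery for single genes (points, filled where called) with the median (bar) in each group of genes. Members and zinc-finger neighbours, ZFP112 included, lie below 0, with medians of -0.46 (19q13.1), -0.53 (19q13.31) and -0.64. Other zinc-finger genes of chromosome 19 have a median of -0.38, and those of other chromosomes one of -0.03. Other genes between the members of 19q13.1, all but HKR1 before ZFP14 in gene order, have a median of 0.01.

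Genes for the proteins that KRAB zinc fingers work with were examined beside them. Of 27 genes tested from a list of TRIM28 corepressor and H3K9 methylation genes, 3 (11.1%) were lower in UNC0642 against DMSO recovery by edgeR. None was higher. Of all genes tested, 2.53% were lower and 2.06% higher. At an unadjusted p under 0.05 in edgeR 6 were lower and 1 higher, and DESeq2 and limma-voom each called 3 lower and 0 higher. TRIM28 was at 1236 ± 26.5 CPM in UNC0642 and 1239 ± 16.8 CPM in DMSO libraries (SD, n = 4 each; -0.00 ± 0.02). SETDB1 (-0.07 ± 0.05), EHMT1 (-0.00 ± 0.04) and EHMT2 (-0.01 ± 0.03) were not called either. The 3 lower genes were ATF7IP, the partner of SETDB1, at -0.25 ± 0.06 (edgeR adjusted p = 0.00785), the heterochromatin remodeller ATRX at -0.19 ± 0.05 (adjusted p = 0.0166), and the histone-binding RBBP4 at -0.09 ± 0.02 (adjusted p = 0.0351). Against 0 h, 11 of the 27 were lower and 2 higher after UNC0642 recovery, and 9 were lower and 4 higher after DMSO recovery by edgeR, where the shares of all genes were those given above. TRIM28 was lower after UNC0642 (-0.13 ± 0.02) and after DMSO recovery (-0.13 ± 0.02), and so were SETDB1 (-0.28 ± 0.05 and -0.21 ± 0.05) and EHMT1 (-0.13 ± 0.04 in each). RBBP4 was higher after UNC0642 (0.24 ± 0.02, adjusted p = 1.60e-09) and after DMSO recovery (0.32 ± 0.02, adjusted p = 2.15e-12). ATRX was higher after DMSO recovery (0.17 ± 0.05, adjusted p = 0.00592) and not called after UNC0642 (-0.02 ± 0.05).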

How the data were processed

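RNA sequencing of 12 HCT116 libraries was grouped by titles and treatment labels. Per the submitters' processing notes, the authors used RSEM 1.2.4 and Bowtie with hg18. The deposited tables hold, per the file headers, expected counts and FPKM per gene. The strandedness was not stated, so antisense partners cannot be told apart. Reads shared by similar zinc-finger genes are split by RSEM. Expected counts were rounded and tested with edgeR 4.0.16 in R 4.3.3 (TMM, filterByExpr, 12741 of 18969 genes, quasi-likelihood F-test, two-sided, all 12 libraries in 1 fit). SE is the fold change divided by the root of F. CPM is TMM-scaled over tested genes, while the limit of 1 CPM used library totals. Totals of 14658082 to 20179847 counts limit the precision of genes at a few CPM. Calls were at a Benjamini-Hochberg adjusted p under 0.05, and no p was computed for the list. Members and lists were chosen with earlier results of these data known. By rule, the text names per band the 6 lowest called members, the 2 largest called changes against 0 h in each direction and the 2 highest by FPKM, and every gene under the limit; the lowest and highest neighbours and main corepressors are added. Replicate numbers did not pair the samples. Gene order and the genes between members came from RefSeq gene positions on GRCh38.p14, where 98.8% of genes had a place. Sequence sharing used GENCODE release 29 transcripts. The fit was tested on simulated data.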

Additional observations from a re-analysis of the deposited data

Results flagged for a closer look

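Each group of 4 libraries was examined for the 28 members described and for their median, 87 in all, and in 5 of them, all of single members, 1 library lay apart from the other 3 by Dixon's criterion. Chance flags about 1 in 20 groups. ZNF181 had 3.84 CPM in DMSO replicate 2, against 4.36 to 4.45 CPM in the other DMSO libraries. ZNF283 had 5.85 CPM in the same library, against 4.82 to 4.95 CPM in the other DMSO libraries. Without that library its log2 fold change for UNC0642 against DMSO recovery was -0.73 (edgeR adjusted p = 0.00466), against -0.79 with it. ZNF30 had 1.68 CPM in 0 h replicate 4, against 2.36 to 2.43 CPM in the other 0 h libraries. ZNF792 had 3.82 CPM in 0 h replicate 3, against 2.76 to 2.87 CPM, and its rise after DMSO recovery was called in 1 of 12 fits that each left out a library, the one without this library. ZNF565 had 1.67 CPM in 0 h replicate 3, against 2.64 to 2.84 CPM.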

How the results depend on the processing

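No result changed its direction while called under any setting. Of the members' single-gene values under the alternatives, 2478 kept their side of the threshold, 95 lost a call and 19 gained one. The count of 14 members lower in UNC0642 against DMSO recovery became 9 in the long-gap libraries, 2 in the short-gap libraries and 9 without libraries with COL1A2 above 1 CPM, a setting added after seeing the data, and 12 to 16 leaving out single libraries. These settings compare fewer samples. In limma on log2 FPKM, with all 12 libraries, the count was 11 of 26 members with a pseudocount of 0.1 and 11 of 26 with 1. It was 10 of 28 with a pseudocount of 1 and no filter. Against 0 h the 17 lower members became 10 without the COL1A2 libraries, and 15 to 18 leaving out single libraries. The median of UNC0642 against DMSO recovery was -0.4357, -0.2663 and -0.2406 in limma on log2 FPKM with a pseudocount of 0.1, of 1, and of 1 without a filter, where a pseudocount shrinks changes of low genes. It was -0.4447 without the COL1A2 libraries and -0.5394 to -0.4629 leaving out single libraries. Against 0 h it was -0.3558, -0.2502 and -0.2418 on those FPKM scales and -0.5288 to -0.4233 leaving out single libraries. For DMSO recovery against 0 h the median was -0.0498 without the COL1A2 libraries and 0.0 to 0.0603 leaving out single libraries. Its 1 lower member became 0 in the short-gap libraries and on unfiltered log2(FPKM + 1), and 2 in a fit of the 8 libraries compared, with 1 to 2 leaving out single libraries. Its 2 higher members became 1 with DESeq2, RLE factors, effective length offsets, length trend offsets, length and GC trend offsets (added later), no filter or only the 8 libraries, 0 in the long-gap or short-gap libraries and without the COL1A2 libraries, and 0 to 1 leaving out single libraries. The cause was not tested. Replicate numbers did not pair the samples: correlations of same-numbered deviations were -0.1034 to 0.0445, and 0 of 12 libraries matched its own number best. With the replicate number as a block, 15 members were lower in UNC0642 against DMSO recovery, and 2 were lower and 1 higher in DMSO recovery against 0 h. The median SE of the log2 fold change for UNC0642 against DMSO recovery was 0.18 in members with a mean under 5 CPM and 0.097 in the others.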
